A study of Rattus norvegicus with 12 samples.

Results

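Oscillospiraceae are a family of strictly anaerobic Clostridia (order Oscillospirales) that live in the large intestine of rodents, ruminants and people. Members were the amplicon sequence variants (ASVs, exact 16S rRNA gene sequences inferred from the reads) whose deposited lineage names this family. That held for 768 of the 7238 ASVs, or 10.6%, and these carried on average 5.55% of the reads of a library. Of the 768 ASVs, 398 had no genus name and the others fell under 12 names, 1 of which is "uncultured". The rule used the lineage alone.

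Most of the family has never been grown in pure culture, and many of its genera are known only under placeholder names such as UCG-005 and NK4A214_group. Cultured relatives ferment carbohydrates, amino acids or plant compounds to short-chain fatty acids. Oscillibacter is known for making valerate, Intestinimonas for making butyrate from lysine, and Flavonifractor for cleaving flavonoids and making butyrate.

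The samples were rat faeces in 4 groups of 3 libraries. SAH+Tet+ABX had the SAH model (a usual short form for subarachnoid haemorrhage, bleeding around the brain), Tet and ABX, a usual short form for antibiotics. SAH+Tet had the model and Tet, which the series title spells out as tetrandrine, an alkaloid from a climbing plant. SAH had the model alone, and Sham the sham operation. The labels leave out strain, age, doses, the antibiotics used and the length of treatment, and whether each library is a separate rat. A further treatment label, the same on all 12 samples, names the differentiation of fat cells, which is at odds with rat faeces, and was set aside. The p-values measure the spread between these libraries, which may be partly technical.

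Library totals ran from 211450 to 531426 reads, and a count of 0 allowed a share of up to 0.000565% to 0.00142% (3 reads, counting error only). All 3 SAH+Tet+ABX libraries, SAH+Tet 3 and SAH 1 had under 300000 reads, and the other 7 had more. Shares are percentages of all reads of a library. They are relative, and a lower share cannot be told apart from a rise of other bacteria or a change in total bacterial load.

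Libraries SAH 1 and SAH 2 stood apart as a pair. Of 119 ASVs with at least 50 reads in SAH 1 and none in SAH 3, 118 were found in SAH 2, and the ratio of their raw counts, SAH 2 over SAH 1, had a median of 1.01 (quartiles 0.914 and 1.16) although SAH 2 had 531426 reads and SAH 1 248285. Of the ASVs with at least 50 reads in both, 30.5% had counts within 1.1-fold of each other, against 14.5% in the next pair, Sham 1 and Sham 3. Within Oscillospiraceae, 26 of 29 ASVs with at least 20 reads in SAH 1 and none in SAH 3 were found in SAH 2. SAH 2 also overlapped SAH 3. Of 403 ASVs with at least 50 reads in SAH 2 and none in SAH 1, 367 (91.1%) were found in SAH 3. Outside SAH the highest such share was 76.7%, for SAH+Tet 2 in SAH+Tet 1. The SAH libraries may therefore not be independent samples of the group. The cause was not tested. Leaving out SAH 1, or summing SAH 1 and SAH 2, keeps both SAH 2 and SAH 3, so their overlap remains in those settings. Below, family and genus results for SAH are also given without either library and with both summed into 1, and the distances and ASV numbers without either library.

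The family took 2.27%, 1.66% and 3.30% of the reads in SAH+Tet+ABX 1 to 3. It took 8.47%, 5.94% and 8.91% in SAH+Tet, 5.28%, 3.52% and 5.08% in SAH, and 7.11%, 6.46% and 8.53% in Sham. All SAH+Tet+ABX libraries lay under all others, all SAH libraries lay under all SAH+Tet and all Sham libraries, and SAH+Tet and Sham overlapped. Over the 4 groups the shares differed by an exact permutation test of the F statistic on log2(CPM + 1), where CPM is reads scaled to a common library total, (p = 0.000844, adjusted p = 0.0142 over 94 families, 15400 arrangements), which 30.9% of all families passed. Without the antibiotic group, the same exact test over the 9 remaining libraries gave p = 0.0429 and an adjusted p of 0.269, where the smallest possible p was 0.00357. Ruminococcaceae, a neighbouring family of the same order, averaged 2.09% ± 1.16, 6.90% ± 1.18, 5.15% ± 0.613 and 5.91% ± 2.06 in SAH+Tet+ABX, SAH+Tet, SAH and Sham (SD, n = 3 each). Its exact adjusted p over the 4 groups was 0.0290.

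**Figure D1:**
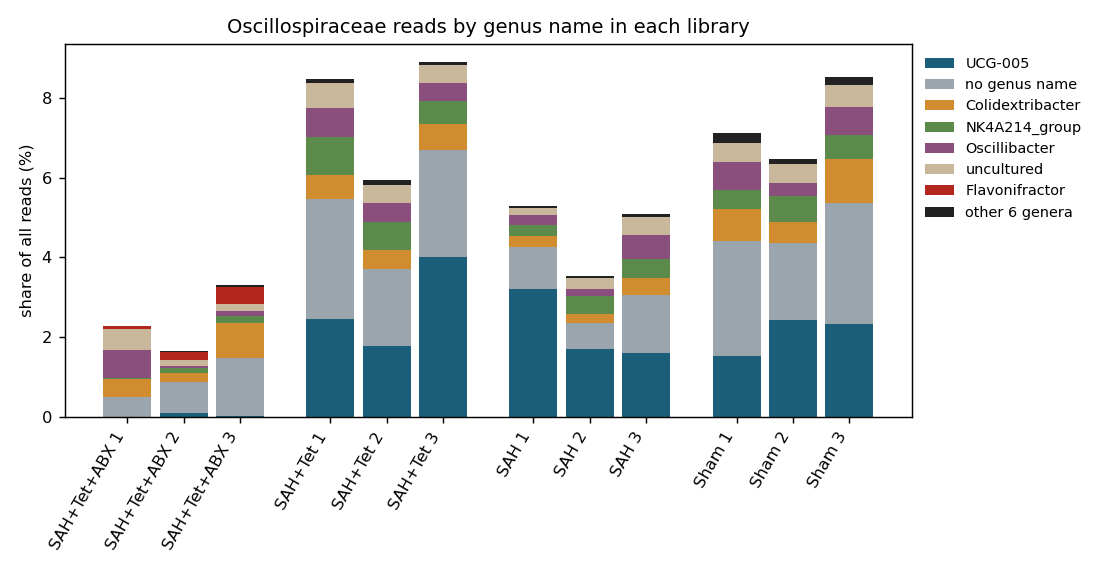
Share of all reads (%, vertical axis) held by Oscillospiraceae in each of the 12 libraries, split by genus name. Bars start at 0. The UCG-005 segment is nearly missing in the 3 SAH+Tet+ABX libraries, where Flavonifractor appears, and it is the widest segment in all 3 SAH libraries.

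Among the placeholder groups, UCG-005 and the ASVs without a genus name made up most of the family outside the antibiotic group. UCG-005, which counted 55 ASVs, held 0%, 0.0931% and 0.0327% of reads in SAH+Tet+ABX 1 to 3, against 2.47%, 1.77% and 4.02% in SAH+Tet. It held 3.21%, 1.71% and 1.61% in SAH and 1.52%, 2.44% and 2.33% in Sham. The 3 groups without antibiotics overlapped, and every SAH+Tet+ABX library lay far under them.

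The 398 ASVs without a genus name held together 0.513%, 0.781% and 1.45% of reads in SAH+Tet+ABX and 3.00%, 1.94% and 2.66% in SAH+Tet. Their shares were 1.06%, 0.653% and 1.44% in SAH and 2.88%, 1.93% and 3.03% in Sham. Unlike UCG-005, they were lower in every SAH library than in any SAH+Tet or Sham library.

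NK4A214_group, with 38 ASVs, held 0.0213%, 0.115% and 0.163% in SAH+Tet+ABX, 0.945%, 0.717% and 0.563% in SAH+Tet, 0.285%, 0.458% and 0.471% in SAH, and 0.476%, 0.640% and 0.615% in Sham. SAH lay under SAH+Tet with a clear gap and under Sham by a narrow one. The 95 ASVs named "uncultured" held 0.526%, 0.143% and 0.182% in SAH+Tet+ABX, 0.623%, 0.463% and 0.438% in SAH+Tet, 0.180%, 0.282% and 0.451% in SAH, and 0.475%, 0.489% and 0.531% in Sham. UCG-003, a single ASV, held 0%, 0.0205% and 0.0229% in SAH+Tet+ABX, 0.0563%, 0.0519% and 0.0480% in SAH+Tet, 0.0254%, 0.0207% and 0.0370% in SAH, and 0.167%, 0.0453% and 0.118% in Sham. Sham 1 and Sham 3 stood above all other libraries for UCG-003.

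Of the genera with cultured species, Colidextribacter (77 ASVs) and Oscillibacter (87 ASVs) were the most abundant. Colidextribacter held 0.441%, 0.238% and 0.876% in SAH+Tet+ABX, 0.603%, 0.478% and 0.661% in SAH+Tet, 0.266%, 0.208% and 0.428% in SAH, and 0.804%, 0.516% and 1.10% in Sham. Oscillibacter held 0.700%, 0.0495% and 0.125% in SAH+Tet+ABX, 0.729%, 0.459% and 0.472% in SAH+Tet, 0.246%, 0.171% and 0.605% in SAH, and 0.721%, 0.335% and 0.703% in Sham. Colidextribacter in SAH+Tet+ABX overlapped every other group. For Oscillibacter, SAH+Tet+ABX 1 lay among the highest libraries, and SAH+Tet+ABX 2 and 3 lay under all others.

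Flavonifractor, with 2 ASVs, was read in SAH+Tet+ABX at 0.0733%, 0.222% and 0.428%, and had 0 reads in the other 9 libraries. Papillibacter, whose cultured species degrades the aromatic acid cinnamate, had 0 reads in SAH+Tet+ABX, 0.0129%, 0.0226% and 0.0220% in SAH+Tet, 0%, 0.0107% and 0.0238% in SAH, and 0.0458%, 0.0395% and 0.0723% in Sham. UCG-007 (3 ASVs, mean share 0.00975%) had 0 reads in SAH+Tet+ABX, 0.0168%, 0.0312% and 0.0110% in SAH+Tet, 0.00403%, 0.00715% and 0.00646% in SAH, and 0.0141%, 0.00903% and 0.0173% in Sham. SAH lay under both SAH+Tet and Sham for UCG-007, while for Papillibacter SAH overlapped SAH+Tet. Intestinimonas, UCG-002 and V9D2013_group stayed at a mean share under 0.01%.

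Over the 4 groups, 4 of the 12 genus-level features tested passed the exact permutation test, against 23.5% of all 200 features tested. These were NK4A214_group and UCG-007 (adjusted p = 0.0114 each), UCG-003 (0.0233) and Papillibacter (0.0246). UCG-005 and the ASVs without a genus name had exact adjusted p-values of 0.0512 and 0.0535, and Colidextribacter, Oscillibacter, "uncultured" and UCG-002 had 0.167, 0.290, 0.188 and 0.118. Flavonifractor and Intestinimonas met the read filter only through the group in which they were highest, so no p is given for them. Without the antibiotic group, 0 of the family's features passed. Leaving out 1 library left 1 to 4 features: 1 without Sham 3 and 2 without any SAH+Tet library, Sham 1 or Sham 2. No share over all features is given for these sets of libraries.

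**Figure D2:**
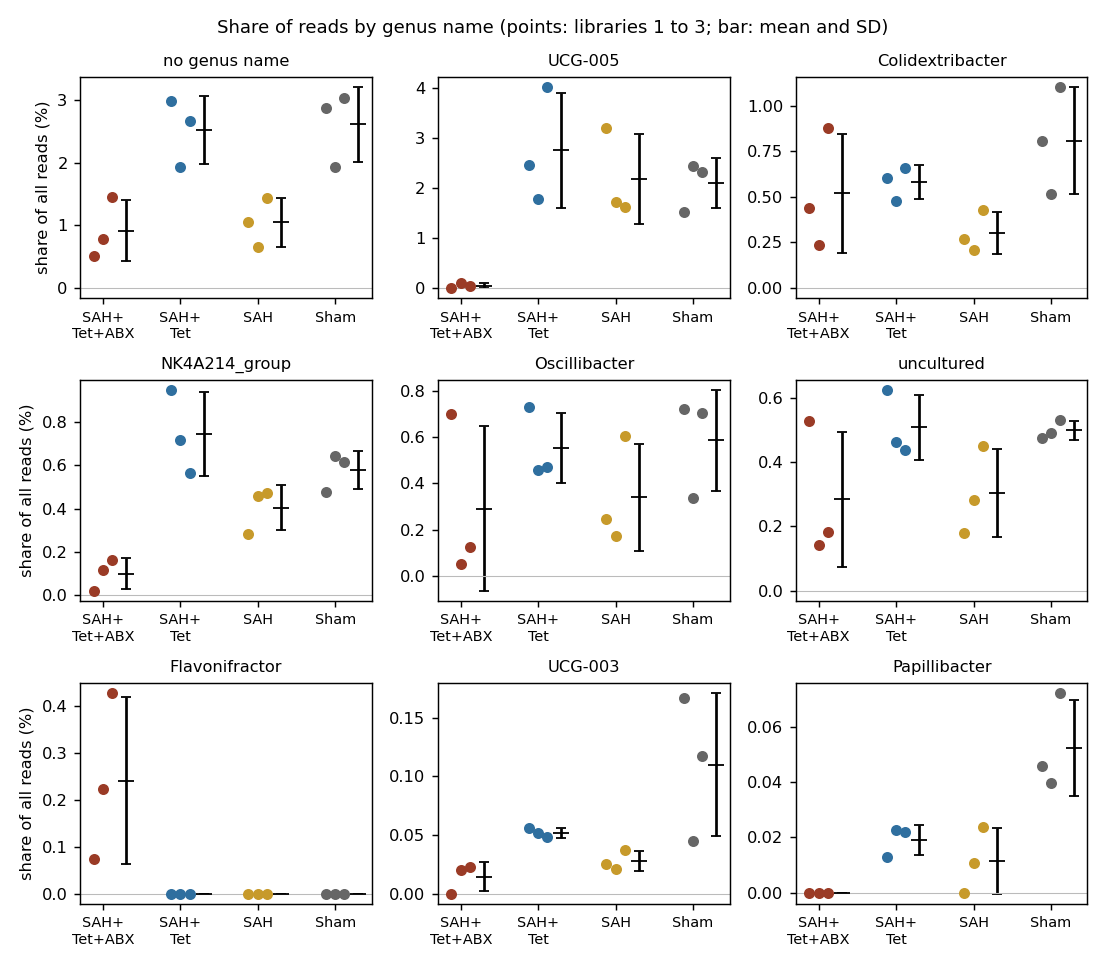
Share of all reads (%) for 9 genus-level groups of Oscillospiraceae. Points are libraries 1 to 3 of each group from left to right, and the bar beside them is the mean with its SD (n = 3). SAH lies under Sham and under SAH+Tet for the ASVs without a genus name and for NK4A214_group, while UCG-005 overlaps between these 3 groups.

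The comparison of SAH with Sham asks what the model alone did to the faecal bacteria. The family share was 4.63% ± 0.962 in SAH and 7.37% ± 1.06 in Sham (SD, n = 3 each). With UCG-005 left out, it was 2.45% ± 0.890 in SAH and 5.27% ± 1.13 in Sham. Among the family's tested genus-level features, only UCG-005 had a log2 fold change above 0. Leaving it out thus lowers SAH against Sham by construction. UCG-005 itself took 47.1% ± 14.6 of the family's reads in SAH and 28.8% ± 8.33 in Sham. By library it took 60.8%, 48.6% and 31.8% in SAH 1 to 3 and 21.4%, 37.8% and 27.3% in Sham 1 to 3, so these groups overlapped. Of 11 genus-level features tested, 7 were lower in all SAH than in all Sham libraries, against 23.4% of all 192 features, and 0 were higher, against 12.0%. The 7 were the ASVs without a genus name, Colidextribacter, NK4A214_group, "uncultured", UCG-003, Papillibacter and UCG-007. The number was 7 without SAH 1, without SAH 2 and with both summed. The median log2 fold change of the 11 was -1.03, beside 0.16 over all 192.

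At the family level the groups did not overlap either, as for 19.1% of all families in that direction. edgeR's quasi-likelihood test called 0 of these 11 features and 0.0% of all 192 at an adjusted p under 0.05, and 0.0% of families. It also called 0 of these features, and 0 of the family's ASVs, without SAH 1, without SAH 2 and with both summed. The family's log2 fold change, SAH over Sham, was -0.47 ± 0.41 (SE, adjusted p = 0.514). It was -0.65 without SAH 1, -0.26 without SAH 2, -0.49 with both summed, and -0.59 among the libraries over 300000 reads. The lowest adjusted p among the features was 0.137, shared by the ASVs without a genus name (log2 fold change -1.03 ± 0.37), Colidextribacter (-1.13 ± 0.43) and UCG-003 (-1.75 ± 0.62). Without SAH 1, without SAH 2 and with both summed, these were -1.12, -0.84 and -1.02 for the ASVs without a genus name, -1.13, -0.99 and -1.07 for Colidextribacter, and -1.77, -1.65 and -1.72 for UCG-003. UCG-005 had a log2 fold change of 0.45 ± 0.41 (adjusted p = 0.553), with -0.04 without SAH 1, 0.56 without SAH 2 and 0.18 with both summed. At an unadjusted p under 0.05, 3 of the 11 features and 28.6% of all features passed. DESeq2 called 4 of the 11, all lower (ASVs without a genus name, Colidextribacter, UCG-003 and "uncultured", adjusted p between 0.00618 and 0.0424), against 25.5% of all features, and limma on centred log-ratio values called 0, against 4.69%.

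At the level of single ASVs, edgeR called 0 of 344 tested members and 0.0% of all 2283. With an unadjusted p under 0.05 there were 69 members (24.2% of all ASVs). DESeq2 called 41 members (17.7% of all ASVs) and limma 31 (11.8%). Groups without overlap were lower in SAH for 111 of the 344 (23.7% of all ASVs) and higher for 9 (7.01%). Leaving out SAH 1, leaving out SAH 2 or summing both gave 120, 111 and 119 lower. Of the 344, 132 met the read filter only through the group in which they were higher, so these counts are descriptions. UCG-005 variant 9, numbered as all named variants by its abundance rank in the family, held 0.358%, 0.218% and 0.393% of reads in SAH 1 to 3 and 0 in all Sham libraries, at least 543-fold higher. Its shares in SAH+Tet were 0.00699%, 0 and 0.0106%, all under those of SAH. UCG-005 variant 74 held 0.0346%, 0.0184% and 0.0357% in SAH and 0 in Sham, at least 49.7-fold higher. Both met the read filter only through SAH, so no p is given for them.

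In the lower direction, no genus name variant 107 had 0 reads in SAH and 0.0323%, 0.0128% and 0.0175% in Sham, at least 25.6-fold lower. For no genus name variant 106 the shares were 0 in SAH and 0.0319%, 0.00662% and 0.0502% in Sham, at least 36.3-fold lower. Both had an edgeR adjusted p of 0.110, with 0.171 without SAH 1, 0.229 without SAH 2 and 0.178 with both summed, and between 1.55e-05 and 0.325 over all alternatives for no genus name variant 107 and 2.16e-05 and 0.325 for no genus name variant 106.

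SAH+Tet against SAH, which asks what tetrandrine did in the model, shares the SAH libraries with the comparison above. The family share was 7.77% ± 1.60 in SAH+Tet and 4.63% ± 0.962 in SAH (SD, n = 3 each), and without UCG-005 it was 5.02% ± 0.924 in SAH+Tet and 2.45% ± 0.890 in SAH. Here UCG-005 alone of the family's tested genus-level features had a log2 fold change below 0. Leaving it out thus raises SAH+Tet against SAH by construction. Of 11 genus-level features, 6 were higher in all SAH+Tet than in all SAH libraries (12.5% of all 192), and 0 were lower (9.9%). The 6 were the ASVs without a genus name, Colidextribacter, NK4A214_group, UCG-003, UCG-007 and Intestinimonas, the last of which met the read filter only through SAH+Tet. The number was 7 without SAH 1, and 6 without SAH 2 and with both summed. The median log2 fold change over the 11 was 0.57, beside 0.07 over all 192.

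The family too was higher in all SAH+Tet libraries, as 4.26% of all families were. The edgeR test called 0 of the 11 features, 0.0% of all features and 0.0% of families, and 0 of these features and of the family's ASVs without SAH 1, without SAH 2 or with both summed. For the family the log2 fold change, SAH+Tet over SAH, was 0.70 ± 0.41 (SE, adjusted p = 0.422). Without SAH 1, without SAH 2 and with both summed it was 0.83, 0.49 and 0.68, and among the libraries over 300000 reads 0.67. The ASVs without a genus name had 0.93 ± 0.37 (adjusted p = 0.231), and 1.02, 0.74 and 0.92 in those 3 settings. NK4A214_group had 0.57 ± 0.40 (adjusted p = 0.496), and 0.41, 0.75 and 0.50 in those settings. UCG-007 had 1.52 ± 0.65 (adjusted p = 0.253), and 1.36, 1.78 and 1.47. UCG-005 had -0.11 ± 0.41 (adjusted p = 0.927), with 0.38 without SAH 1, -0.22 without SAH 2 and 0.16 with both summed. At an unadjusted p under 0.05, 2 of 11 features passed, against 19.3% of all. DESeq2 called 2, NK4A214_group (adjusted p = 0.0118) and UCG-007 (0.0331), both higher, against 15.1% of all features, and limma called 0, against 0.521%.

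Of 344 member ASVs tested, edgeR called 0 (0.0% of all 2283 ASVs), 69 had an unadjusted p under 0.05 (20.8% of all), DESeq2 called 40 (13.1% of all) and limma 15 (4.91%). Without overlap, 67 of the 344 were higher in SAH+Tet (9.81% of all ASVs) and 5 were lower (6.22%). Leaving out SAH 1, leaving out SAH 2 or summing both gave 80, 69 and 75 higher, and 109 of the 344 met the read filter only through the group in which they were higher. No genus name variant 107, described above, held 0.0177%, 0.0110% and 0.0238% in SAH+Tet and 0 in SAH, at least 21.5-fold higher (adjusted p = 0.179). Uncultured variant 169 held 0.00764%, 0.0201% and 0.0277% in SAH+Tet and 0 in SAH, at least 22.7-fold higher (adjusted p = 0.179). Colidextribacter variant 203 ran the other way, with 0 in SAH+Tet and 0.00926%, 0.0102% and 0.00713% in SAH, at least 10.4-fold lower (adjusted p = 0.179). For these 3 variants the adjusted p was 0.175 without SAH 1, 0.328 without SAH 2 and 0.220 with both summed. UCG-005 variant 9 was lower in all SAH+Tet than in all SAH libraries, as given above.

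SAH+Tet+ABX against SAH+Tet asks what the antibiotics did under tetrandrine. All 3 SAH+Tet+ABX libraries belong to the lower depth class, with only SAH+Tet 3 beside them. The family share was 2.41% ± 0.828 in SAH+Tet+ABX and 7.77% ± 1.60 in SAH+Tet (SD, n = 3 each), lower without overlap, as for 33.0% of all families. edgeR called 29.8% of families. For Oscillospiraceae it gave a log2 fold change of -1.14 ± 0.48 (adjusted p = 0.0805), which missed the threshold. With library totals in place of TMM it was -1.69 (adjusted p = 0.00462), without SAH+Tet+ABX 3 it was -1.78 (adjusted p = 0.00940), and on centred log-ratio values it was 1.29, the opposite sign (adjusted p = 0.316). Over all 94 families the median log2 fold change was -2.65 with TMM, -2.99 with library totals and 0.53 on centred log-ratio values, so the family stood above that median in each scale. Among the libraries under 300000 reads it was -1.38 (adjusted p = 0.781).

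Of 12 genus-level features tested, edgeR called 5, against 37.0% of all 200 features: 4 lower (28.0% of all) and 1 higher (9.0%). UCG-005 fell by 5.70 on the log2 scale (SE 1.59, adjusted p = 0.0186), and within the family it took 2.20% ± 2.99 of reads in SAH+Tet+ABX and 34.7% ± 9.07 in SAH+Tet (SD, n = 3 each). NK4A214_group fell by 2.62 (SE 0.77, adjusted p = 0.0231). UCG-007 was at least 15.0-fold lower (adjusted p = 0.00111) and Papillibacter at least 14.7-fold lower (0.0141), each against the limit of 3 reads per library. Flavonifractor was at least 283-fold higher, but it met the read filter only through SAH+Tet+ABX, so no p is given for it. UCG-007 and Papillibacter passed under each of the alternatives that tested them. NK4A214_group had a log2 fold change of -0.98 on centred log-ratio values (adjusted p = 0.300). It missed the threshold at about the same size with only these 2 groups in the fit (-2.46, adjusted p = 0.103), with depth class as a block (-2.29, 0.0840), with a lighter read filter (-2.66, 0.0767), and without SAH+Tet+ABX 2 (-2.85, 0.0511), SAH+Tet 1 (-2.49, 0.0609) or SAH+Tet 2 (-2.62, 0.0535). UCG-005 did so with only these 2 groups in the fit (-5.49, 0.0650) and without SAH+Tet+ABX 3 (-5.49, 0.0717). Among the libraries under 300000 reads, which hold 1 SAH+Tet library, the log2 fold change was -6.05 for UCG-005 and -2.16 for NK4A214_group, and UCG-007 and Papillibacter were not tested. Groups did not overlap for 6 lower features, the 4 called lower, UCG-003 and the ASVs without a genus name (32.0% of all features), and for 1 higher, Flavonifractor (9.5%).

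The other 7 features did not pass. Log2 fold changes were -1.25 ± 0.56 for the ASVs without a genus name (adjusted p = 0.0968), -0.86 ± 0.88 for Oscillibacter (0.461), -0.72 ± 0.61 for "uncultured" (0.351), -1.55 ± 1.26 for UCG-003 (0.332) and -0.01 ± 0.63 for Colidextribacter (1). UCG-002 was at least 1.36-fold lower (0.0692), and Intestinimonas met the read filter only through SAH+Tet. DESeq2 called 5 of the 12 (52.5% of all features) and limma 4 (37.5%). The median of the 12 was -1.05 with features at 0 in a group set to their limit, beside -1.12 over all 200. Within the family, Colidextribacter took 20.1% ± 6.15 of the reads in SAH+Tet+ABX and 7.53% ± 0.475 in SAH+Tet, and Flavonifractor 9.86% ± 5.75 in SAH+Tet+ABX and 0 in SAH+Tet.

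Among 353 ASVs tested, edgeR called 50, against 10.3% of all ASVs: 49 lower (9.73% of all 2394 ASVs) and 1 higher (0.585%). Of the 49, 48 had 0 reads in all SAH+Tet+ABX libraries, and 1 met the read filter only through SAH+Tet. Of the 353, 96 met it only through the group of the pair in which they were higher. DESeq2 called 123 (36.5% of all ASVs) and limma 30 (9.77%). The number called in either direction was 0 without SAH+Tet+ABX 3, 13 without SAH+Tet+ABX 1, 19 without SAH+Tet+ABX 2, 30 without SAH+Tet 1 or without SAH+Tet 2, and 78 without SAH+Tet 3. No share over all ASVs is given for these sets of libraries. By genus, 15 of 32 tested UCG-005 ASVs, 6 of 24 NK4A214_group ASVs, 17 of 175 ASVs without a genus name, 5 of 34 Colidextribacter ASVs and 4 of 44 Oscillibacter ASVs were called lower, and 0 of 36 "uncultured" ASVs. Groups did not overlap for 111 ASVs that were lower (19.2% of all ASVs) and 2 that were higher (3.63%).

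The 8 most abundant ASVs of the family were UCG-005 variants 1, 3, 4, 5, 6 and 7, no genus name variant 2 and NK4A214_group variant 8. UCG-005 variant 1 held 0, 0.00811% and 0% in SAH+Tet+ABX, 1.05%, 0.219% and 1.76% in SAH+Tet, 1.03%, 0.451% and 0.521% in SAH, and 0.303%, 0.317% and 0.204% in Sham. It fell by 9.03 on the log2 scale in SAH+Tet+ABX against SAH+Tet (SE 2.22, edgeR adjusted p = 0.0311). UCG-005 variants 3 to 7 and NK4A214_group variant 8 had 0 reads in all 3 SAH+Tet+ABX libraries and were called lower, with limits from at least 24.1-fold (UCG-005 variant 6, adjusted p = 0.0496) to at least 224-fold (UCG-005 variant 3, adjusted p = 0.0196). UCG-005 variant 6 also had 0 reads in SAH+Tet 2, so its groups overlapped. With 1 library left out, the highest edgeR adjusted p was 0.128 for UCG-005 variant 6 and from 0.0508 to 0.106 for the others of these variants. No genus name variant 2 held 0%, 0.0226% and 0.0176% in SAH+Tet+ABX and 0.440%, 0.230% and 0.538% in SAH+Tet, with a log2 fold change of -5.58 ± 1.70 that missed the threshold (adjusted p = 0.0547).

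These abundant ASVs also differed between libraries of the same group. UCG-005 variant 3 held 0.148%, 0.0344% and 0.696% in SAH+Tet, 0.327%, 0.195% and 0.177% in SAH, and 0.0323%, 1.03% and 0.0315% in Sham. Sham 2 stood far above the other Sham libraries. UCG-005 variant 6 held 0.0849%, 0% and 0.00968% in SAH+Tet, 0.502%, 0.291% and 0.153% in SAH, and 0.0159%, 0.0217% and 0.0896% in Sham, so every SAH library lay above all others.

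The 2 tested ASVs with the lowest p among those lower in SAH+Tet+ABX were Oscillibacter variant 41 and Colidextribacter variant 32. Oscillibacter variant 41 had 0 reads in SAH+Tet+ABX and 0.113%, 0.0582% and 0.117% in SAH+Tet, at least 73.5-fold lower, and Colidextribacter variant 32 had 0 and 0.0624%, 0.0764% and 0.0642%, at least 51.7-fold lower (edgeR adjusted p = 0.0170 each). The single ASV called higher, no genus name variant 60, held 0.0809%, 0.0337% and 0.0237% in SAH+Tet+ABX and 0 in SAH+Tet, at least 54.1-fold higher (adjusted p = 0.0452). It was read in Sham too (0.0264%, 0.00983% and 0.0258%) and in SAH (0%, 0.00433% and 0.0303%). It missed the threshold without any 1 SAH+Tet+ABX library, without SAH+Tet 1 and without SAH+Tet 2. No genus name variant 175 held 0.0151%, 0.0226% and 0.0188% in SAH+Tet+ABX and 0.00590%, 0.00658% and 0% in SAH+Tet (adjusted p = 0.768), higher in each but short of the threshold.

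**Figure D3:**
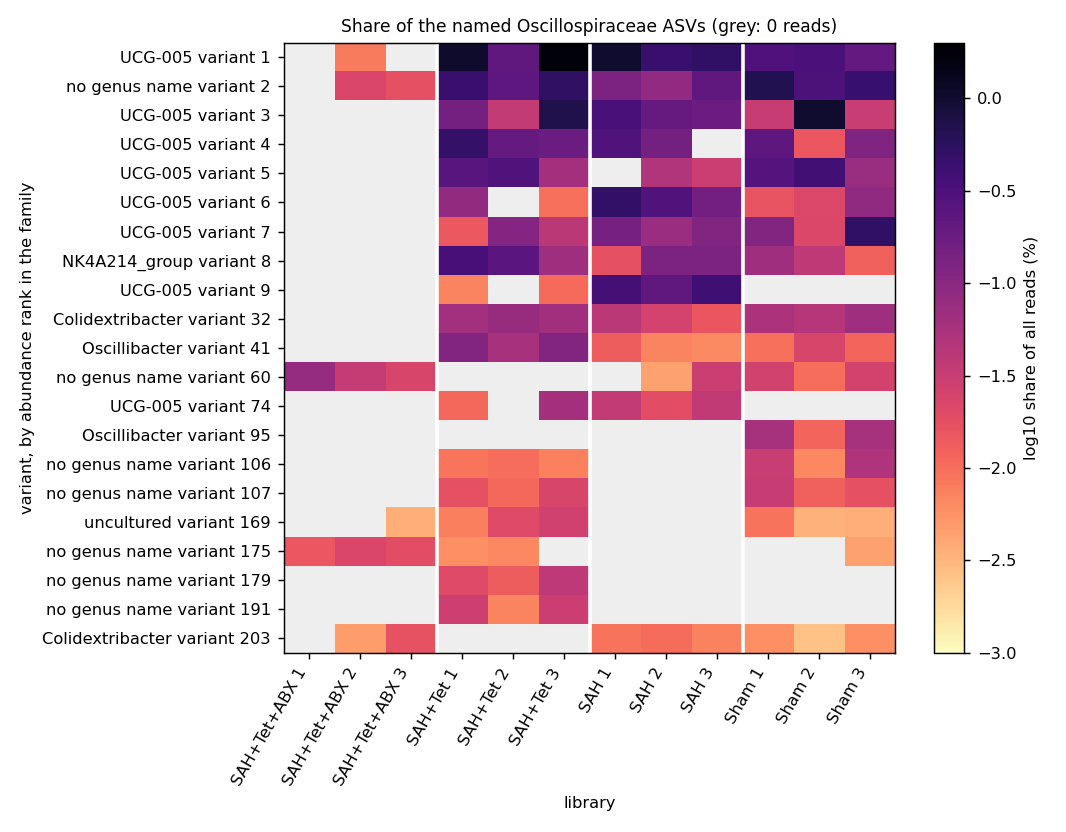
Log10 of the share of all reads (%) for the 21 named ASVs (rows, by abundance rank in the family) in each of the 12 libraries (columns), with grey for 0 reads. UCG-005 variants 3 to 7 and 9 are grey in all SAH+Tet+ABX libraries, and UCG-005 variant 9 is filled in the 3 SAH libraries and grey in the 3 Sham libraries.

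SAH+Tet against Sham sets the treated model beside the sham operation and shares its libraries with the comparisons above. The family share was 7.77% ± 1.60 in SAH+Tet and 7.37% ± 1.06 in Sham (SD, n = 3 each), with a log2 fold change of 0.23 ± 0.41 (SE, edgeR adjusted p = 0.842, 0.0% of families called). The groups overlapped. The sign was negative on centred log-ratio values (-0.44) and with a lighter read filter (-0.09). edgeR called 0 of 11 genus-level features (0.0% of all 192), 0 had an unadjusted p under 0.05 (17.2% of all), and DESeq2 and limma also called 0 (17.2% and 0.0% of all). Without overlap, Intestinimonas was higher in SAH+Tet and Papillibacter lower, 1 of 11 in each direction, against 10.4% and 12.5% of all features. Intestinimonas met the read filter only through SAH+Tet and held 0.00544%, 0% and 0% in Sham, so its count is a description.

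Of 344 member ASVs, edgeR called 0 (0.0% of all 2283). At an unadjusted p under 0.05 there were 55 members (19.1% of all ASVs). DESeq2 called 35 members (11.5% of all ASVs) and limma 39 (9.55%). Of the 344, 154 met the read filter only through the group in which they were higher. Without overlap, 41 were higher in SAH+Tet (6.35% of all ASVs) and 64 were lower (17.8%). No genus name variant 179 held 0.0201%, 0.0134% and 0.0387% in SAH+Tet and 0 in Sham, at least 40.4-fold higher, and no genus name variant 191 held 0.0295%, 0.00697% and 0.0304% in SAH+Tet and 0 in Sham, at least 37.4-fold higher. Oscillibacter variant 95 had 0 reads in SAH+Tet and 0.0589%, 0.0116% and 0.0587% in Sham, at least 50.6-fold lower. These 3 variants met the read filter only through the group in which they were higher, so no p is given for them. Colidextribacter variant 203 had 0 in SAH+Tet and 0.00585%, 0.00261% and 0.00577% in Sham, at least 5.57-fold lower (edgeR adjusted p = 0.135).

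The number of Oscillospiraceae ASVs was compared at an equal depth of 211450 reads. It was 53, 81.5 and 87.0 in SAH+Tet+ABX, 361, 337 and 230 in SAH+Tet, 145, 198 and 238 in SAH, and 365, 294 and 354 in Sham. The means were 73.8 ± 18.2 in SAH+Tet+ABX, 309 ± 69.6 in SAH+Tet, 194 ± 46.8 in SAH and 337 ± 38.2 in Sham (SD, n = 3 each). SAH+Tet+ABX lay under all other libraries and SAH under Sham, while SAH+Tet 3 lay under SAH 3. Without SAH 1 the SAH mean was 218 and without SAH 2 it was 191. In the lower depth class, SAH+Tet 3 had 230 and SAH 1 had 145. In the higher class, SAH 2 and SAH 3 stayed under SAH+Tet 1, SAH+Tet 2 and all Sham libraries.

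As a share of all ASVs observed, the family made up 12.8% ± 1.06 in SAH+Tet+ABX, 15.3% ± 1.76 in SAH+Tet, 11.3% ± 1.82 in SAH and 14.8% ± 1.53 in Sham (SD, n = 3 each). All ASVs together numbered 573 ± 117 in SAH+Tet+ABX, 2066 ± 642 in SAH+Tet, 1756 ± 522 in SAH and 2271 ± 61.9 in Sham. The number of ASVs without a genus name was 39.9 ± 16.4 in SAH+Tet+ABX, 156 ± 44.2 in SAH+Tet, 92.0 ± 25.0 in SAH and 175 ± 21.0 in Sham. For "uncultured" it was 9.33 ± 5.13, 28.9 ± 9.39, 12.7 ± 7.50 and 32.0 ± 7.15 in the same order of groups. UCG-005 differed from these in that SAH (25.5 ± 1.64) had nearly as many ASVs as SAH+Tet (29.8 ± 3.05) and Sham (30.6 ± 3.14), against 2 ± 2 in SAH+Tet+ABX.

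**Figure D4:**
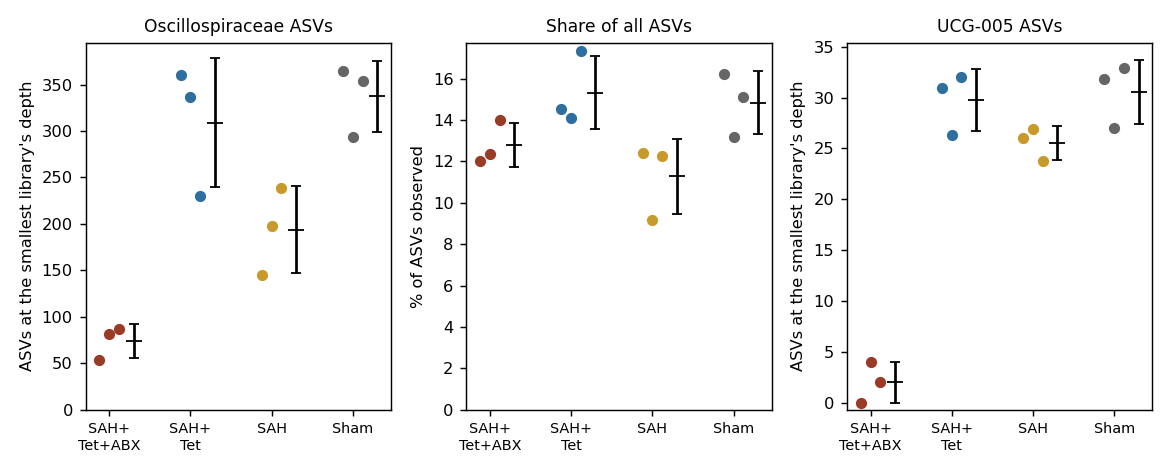
Expected number of Oscillospiraceae ASVs at 211450 reads (left), their share of all ASVs observed (middle, %) and the number of UCG-005 ASVs (right). Points are libraries 1 to 3 of each group and the bar is the mean with its SD (n = 3). The SAH+Tet+ABX libraries had 53 to 87.0 ASVs of the family and 0 to 4 of UCG-005.

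Of the 768, 266 were read in 1 library, 2 in all 12 and 51 in all 9 libraries without antibiotics. Those read in 1 library carried 3.13% of the family's reads. SAH+Tet+ABX held 163 ASVs of the family, of which 63 were in no other group, SAH+Tet held 498 (135 in no other), SAH 329 (41 in no other) and Sham 490 (125 in no other). The numbers found in all 3 libraries of a group were 8, 151, 79 and 216 in that order. ASVs found in no other group took 38.8%, 31.7% and 36.2% of the family's reads in SAH+Tet+ABX 1 to 3, and at most 8.04% in any other library. No such counts or shares are given over all ASVs or for other families, so these describe the family alone.

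Turnover at equal depth was lopsided in each comparison with SAH. Of the ASVs expected in SAH, 78.1% were also found in Sham, and 52.8% of those in Sham were found in SAH. Between SAH+Tet and SAH, 51.1% of the SAH+Tet ASVs were found in SAH and 77.4% of the SAH ASVs in SAH+Tet. Without SAH 1 and without SAH 2, the share of SAH ASVs found in Sham was 81.4% and 79.3%, and that of SAH+Tet ASVs found in SAH 48.2% and 47.8%. SAH+Tet and Sham held 66.0% and 67.7% of their ASVs in common. SAH+Tet+ABX had 53.5% of its ASVs in common with SAH+Tet, which was 17.7% of those in SAH+Tet. Over all ASVs, 56.4% of those in SAH were found in Sham and 48.0% of those in Sham in SAH. The 2 shares were 45.8% and 56.4% between SAH+Tet and SAH, and 54.5% and 57.0% between SAH+Tet and Sham. SAH+Tet+ABX shared 43.5% of its ASVs with SAH+Tet, which was 12.7% of those in SAH+Tet. In reads, ASVs absent from SAH+Tet took 41.6% ± 2.12 of the family's reads in SAH+Tet+ABX, and ASVs absent from SAH+Tet+ABX took 63.3% ± 8.75 in SAH+Tet (SD, n = 3 each). Over all ASVs these 2 shares were 21.6% ± 7.78 and 52.4% ± 4.29. For Ruminococcaceae they were 56.7% ± 21.8 and 95.2% ± 2.31, and for Lachnospiraceae 56.4% ± 3.97 and 87.4% ± 2.78, both higher than in Oscillospiraceae.

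The make-up of the family was also compared by Bray-Curtis distance between libraries on shares within the family, where 0 is the same make-up and 1 has no ASV in common. It averaged 0.906 ± 0.0322 between SAH+Tet+ABX and SAH+Tet, 0.546 ± 0.0631 between SAH+Tet and SAH, 0.589 ± 0.0555 between SAH and Sham and 0.550 ± 0.0532 between SAH+Tet and Sham (SD over 9 pairs that share libraries). Within groups it averaged 0.823 in SAH+Tet+ABX, 0.492 in SAH+Tet, 0.381 in SAH and 0.434 in Sham, over 3 pairs each. On average the SAH+Tet+ABX libraries thus lay farther from each other than the other groups lay from one another. The lowest distance of all 66 pairs was 0.246, between SAH 1 and SAH 2. SAH 2 and SAH 3 were 0.378 apart, and SAH 1 and SAH 3 0.520. Without SAH 2, the pair left within SAH was thus wider than the means within SAH+Tet and Sham. Without SAH 1 and without SAH 2, the distance was 0.541 and 0.559 between SAH+Tet and SAH, and 0.556 and 0.603 between SAH and Sham. By genera in place of ASVs, SAH+Tet and Sham were 0.126 apart and SAH and Sham 0.236. Between SAH and Sham, Ruminococcaceae and Lachnospiraceae were 0.731 ± 0.0866 and 0.797 ± 0.0431 apart on the same measure. Their distances within groups were also wider, 0.518 in SAH and 0.601 in Sham for Ruminococcaceae, and 0.565 in SAH and 0.450 in Sham for Lachnospiraceae. No test was made of these distances.

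**Figure D5:**
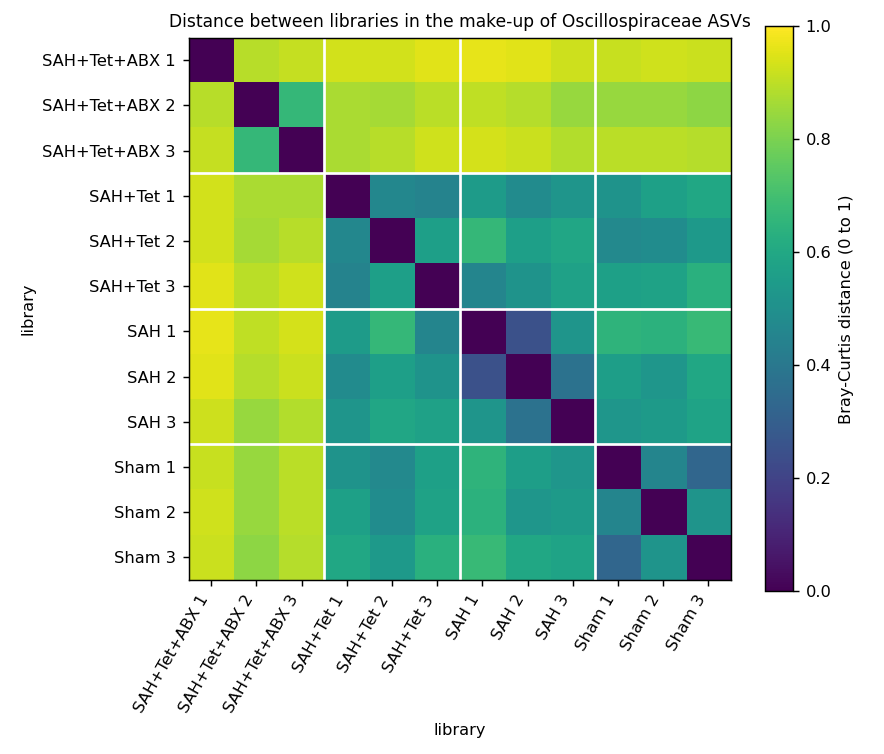
Bray-Curtis distance (0 to 1, colour) between each pair of the 12 libraries in the make-up of their Oscillospiraceae ASVs, with white lines between groups. The SAH+Tet+ABX libraries are far from all others, at 0.831 to 0.965, and SAH 1 and SAH 2 form the closest pair at 0.246.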

How the data were processed

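The members and taxon lists were chosen with earlier results of these data known. The deposited files hold unscaled read counts per ASV with a lineage and no sequence or ASV identifier. Per the submitters' processing notes, the authors used fastp and cutadapt. For primers, denoiser, chimera filter and taxonomy database, nothing was stated in the labels, headers or notes. The 12 per-sample tables were identical to the series table of 7240 ASVs, and 2 ASVs assigned to Eukaryota (12 reads) were left out. Counts were summed by genus (393 features) and family (195).

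edgeR 4.0.16 in R 4.3.3 (quasi-likelihood, TMM) tested features with at least 10 reads in at least 3 libraries, with Benjamini-Hochberg adjustment over all features tested and a threshold of 0.05. Comparisons without antibiotics came from 1 fit of 9 libraries, and SAH+Tet+ABX against SAH+Tet from all 12. The SE is the absolute log2 fold change over the square root of F. A fold against a group at 0 was set against 3 reads per library. Alternatives were DESeq2 1.42.0, limma 3.58.1 on centred log-ratio values, library totals, other read filters, other sets of libraries, and blocks for depth class and replicate number. ASV numbers at equal depth are exact rarefaction expectations (SciPy 1.17.1). Scripts were tested on simulated data. Genera with a mean share of at least 0.01% got values per library. Named ASVs were the 8 most abundant and, per comparison, the 2 with the lowest p in each direction among those without overlap. UCG-007, just below that share, was named after its values were seen, because it was called. Same-numbered libraries did not deviate together in all pairs, so the replicate numbers were not used as a pairing.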

Additional observations from a re-analysis of the deposited data

How the results depend on the processing

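Depth limits rare ASVs most: all SAH+Tet+ABX libraries are in the lower depth class, and 3 libraries a group leave wide errors. Over values of single taxa, 682 kept their direction and side of the threshold, 44 newly passed, 55 no longer passed and 25 turned sign, and over values that answer a comparison the numbers were 300, 3, 2 and 3, with 51 that moved. The cause was not tested, except that fewer libraries, fewer features tested or a model with more terms belong to some settings by construction.

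With DESeq2, 4 genera and 41 ASVs were called for SAH against Sham, 2 genera and 40 ASVs for SAH+Tet against SAH, 123 ASVs for SAH+Tet+ABX against SAH+Tet and 35 for SAH+Tet against Sham. Over all ASVs DESeq2 called 17.7%, 13.1%, 36.5% and 11.5% in these comparisons, and 25.5%, 15.1%, 52.5% and 17.2% of all genera. limma on centred log-ratio values called 31, 15, 30 and 39 ASVs in these comparisons, and 11.8%, 4.91%, 9.77% and 9.55% of all ASVs. Numbers of taxa without overlap when SAH 1 or SAH 2 was left out or both were summed, computed after seeing the data, stayed within 1.5 times. With a filter of 1 read in 1 library the first 3 counts of ASVs were 3, 1 and 24. With only the 2 groups compared, 43 ASVs were called for SAH against Sham, 43 for SAH+Tet against Sham, and 93 ASVs and 3 genera between the antibiotic group and SAH+Tet. For the last comparison the ASVs called numbered 78 with a filter of 50 reads and 28 with depth class as a block. With library totals they numbered 31, beside 159 of all 2394 ASVs. Under 300000 reads 1 SAH+Tet library was left, so no count is given. Leaving out 1 library gave 0 to 78 ASVs (0 without SAH+Tet+ABX 3) and 3 to 6 genera. For the remaining settings, here and below, no share over all ASVs or genera is given, so these counts describe the family alone.

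The family's log2 fold change for SAH+Tet+ABX against SAH+Tet was -1.69 with library totals (adjusted p = 0.00462) and 1.29 on centred log-ratio values, and ran from -1.78 to -1.07 when 1 library was left out. For SAH+Tet against Sham it was -0.444 on centred log-ratio values and -0.0896 with the filter of 1 read. UCG-005 turned sign for SAH against Sham at -0.446 on centred log-ratio values and -0.182 over 300000 reads, with -0.0392 to 0.568 when 1 library was left out. For SAH+Tet against SAH it was 0.337 with library totals, 0.00688 with DESeq2, 0.36 on centred log-ratio values, 0.0244 with the filter of 1 read, 0.0809 in a fit of all 12 libraries, 0.296 over 300000 reads, 0.157 with SAH 1 and SAH 2 summed (chosen after seeing the data) and -0.346 to 0.378 when 1 library was left out. NK4A214_group was 0.0323 for SAH against Sham with depth class as a block, and Papillibacter -0.0447 to 1.49 for SAH+Tet against SAH when 1 library was left out.

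For SAH+Tet+ABX against SAH+Tet, Colidextribacter was 0.469 with DESeq2, 1.97 on centred log-ratio values, 0.026 and 0.18 with filters of 1 and 50 reads, 0.245 with only the 2 groups, and -0.622 to 0.286 when 1 library was left out. On centred log-ratio values Oscillibacter was 0.591, "uncultured" 1.25 and the ASVs without a genus name 0.741. The median over all genera was -1.46 in this comparison with TMM, -1.63 with library totals, -0.93 with DESeq2 and 0.02 on centred log-ratio values.

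Over the 4 groups, 2 genera differed without a logarithm, and 1 to 4 when 1 library was left out, with adjusted p of 0.0142 to 0.0452 for the family. Without the antibiotic group (chosen after seeing the data) the exact adjusted p for the family was 0.269 and 0 genera differed.

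The replicate numbers were shared by the groups, but same-numbered libraries did not deviate together: correlations ran from -0.586 to 0.492. Under a block for the replicate number, the exact test over 4 groups gave an adjusted p of 0.0612 for the family and 0 genera. Under that block the family had -1.21 in SAH+Tet+ABX against SAH+Tet (edgeR adjusted p = 0.0464), with 7 ASVs called. Flavonifractor, which met the read filter only through SAH+Tet+ABX, was not called under it.

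Counting an ASV as found at 5 reads gave 297 ASVs in Sham and a share of all ASVs of 13.9% in SAH+Tet+ABX. Bray-Curtis distances on square roots were 0.505 for SAH and Sham, 0.87 for SAH+Tet+ABX and SAH+Tet and 0.478 for SAH+Tet and Sham. By genera the distance was 0.236 between SAH and Sham, 0.184 between SAH+Tet and SAH, 0.454 for SAH+Tet+ABX and SAH+Tet and 0.126 for SAH+Tet and Sham. The share of ASVs found in the other group ran from 38.3% to 56.6% for SAH+Tet in SAH and from 59.2% to 69.7% for SAH+Tet in Sham when 1 library was left out.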

Other observations

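Among the neighbours of Oscillospiraceae in the order Oscillospirales, UCG-010 averaged 0.00245% ± 0.00424 of reads in SAH+Tet+ABX, 0.248% ± 0.0521 in SAH+Tet, 0.373% ± 0.235 in SAH and 0.437% ± 0.365 in Sham (SD, n = 3 each). It was lower in SAH+Tet+ABX than in SAH+Tet by an edgeR log2 fold change of -5.86 ± 1.72 (SE, adjusted p = 0.0266). Butyricicoccaceae, a family known for butyrate producers, averaged 0.923% ± 0.559 in SAH+Tet+ABX, 0.396% ± 0.0362 in SAH+Tet, 0.285% ± 0.144 in SAH and 0.286% ± 0.0494 in Sham, with an exact permutation adjusted p of 0.0290 over the 4 groups. Its edgeR log2 fold change for SAH+Tet+ABX against SAH+Tet was 1.84 ± 0.71 (SE, adjusted p = 0.0672), which missed the threshold. [Eubacterium]_coprostanoligenes_group, named for a bacterium that reduces cholesterol, averaged 1.34% ± 0.216 in SAH+Tet+ABX, 1.22% ± 0.365 in SAH+Tet, 1.37% ± 0.426 in SAH and 1.38% ± 0.450 in Sham (exact permutation adjusted p = 0.959). Lachnospiraceae, a large family of another order, averaged 26.3% ± 11.4, 22.0% ± 3.89, 21.1% ± 7.38 and 27.2% ± 6.57 in the same order of groups (SD, exact permutation adjusted p = 0.820).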
